A study of Mus musculus with 6 samples.

Results

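The genes described here are 10 genes of bile acid synthesis and transport, namely Cyp7a1, Cyp8b1, Cyp27a1, Cyp7b1, Baat, Slc27a5, Slc10a1, Slco1b2, Abcb11 and Nr0b2. They were taken by symbol from the 20140 genes of the count table for their known role, with earlier results of these data known. All 10 had a row, and all 10 were among the 16370 genes that passed the filter on low counts. Polyadenylated RNA was sequenced from whole liver of 6 mice on day 21, with 2 livers in each of 3 groups. The sham livers, which the titles call control, came from mice given PBS. The intra-C and intra-S livers came from mice given CT26 cells, a mouse colorectal carcinoma line. From the study's description of its models, intra-C was read as implantation into the cecum (the premetastatic model) and intra-S as injection into the spleen (the metastasis model), with BALB/c as the host strain. No genotype, transgene or drug was given for any group, and age and sex were not in the labels. The site of the tumor cells, the number of cells given and the tumor load in the liver changed together with the group, so their effects cannot be told apart. CT26 cells carry the mouse genome, so reads from tumor cells in a liver were counted on the same genes.

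Bile acids are made from cholesterol in hepatocytes. The classic route starts with Cyp7a1 and the alternative route with Cyp27a1 and Cyp7b1, the products are coupled to taurine or glycine, and they are then pumped into bile, taken up again in the gut and returned to the liver in portal blood. Bile acids hold their own synthesis in check through the receptor FXR (Nr1h4), which induces the repressor Nr0b2 (SHP) in the liver and the hormone Fgf15 in the gut, and inflammation of the liver is known to lower many of these genes.

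Between 32838321 and 43368309 reads were counted per liver. Levels are given in CPM, the counts of a gene relative to its library's total, with the totals made comparable by the TMM method (factors from 0.884 to 1.14). The smallest count of any of the 10 genes in a liver was 78 reads, for Cyp7b1 in intra-S replicate 1. How closely the livers of a group matched varied. A gap of more than 4-fold between both livers of a group was seen, among 7261 genes with a mean of at least 10 CPM, for 19 genes in sham, 39 in intra-C and 285 in intra-S. The marker genes of hepatocytes that were checked were high in every liver, with 12 markers summing to between 141298 and 261277 CPM, and Alb alone, which encodes serum albumin, ranged from 84369 to 156594 CPM.

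The positions of the genes are those of RefSeq on GRCm38.p6, the assembly also known as mm10. The hydroxylases lie at chr4:6265612-6275632 (Cyp7a1, minus strand), chr9:121914356-121916305 (Cyp8b1, minus), chr1:74713148-74737897 (Cyp27a1, plus) and chr3:18071944-18243890 (Cyp7b1, minus). The conjugation enzymes lie at chr4:49489416-49507915 (Baat, minus) and chr7:12988346-12998192 (Slc27a5, minus). The transporters lie at chr12:80953185-80968705 (Slc10a1, minus), chr6:141629452-141686646 (Slco1b2, plus) and chr2:69238282-69342616 (Abcb11, minus). Nr0b2 lies at chr4:133553376-133556686 on the plus strand. These spans cover exons and introns, whereas only reads on exons were counted. Exons of Abcb11 overlap 2 annotated transcripts of the opposite strand, the antisense gene Gm13613 and the processed pseudogene Gm13614. Neither had a row in the table, and because the library kit does not mark strand, reads from them cannot be told apart from reads of Abcb11. No exon of the other 9 genes overlapped another gene of the GENCODE annotation.

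The 250 bases upstream of the start site were available from RefSeq (GRCm38.p6) for 6 of the 10 genes, without Cyp7a1, Cyp7b1, Baat and Slc27a5. They were searched on both strands for the letters of 7 motifs of factors that are known to act on bile acid genes or in inflammation. Shown are the windows of 4 genes that stand for a hydroxylase, the uptake and export pumps and the repressor, each written 5' to 3' on the strand of the gene and ending at the base before the start site. Capitals mark a match to a motif.
Cyp8b1 (chr9:121916306-121916555, minus strand): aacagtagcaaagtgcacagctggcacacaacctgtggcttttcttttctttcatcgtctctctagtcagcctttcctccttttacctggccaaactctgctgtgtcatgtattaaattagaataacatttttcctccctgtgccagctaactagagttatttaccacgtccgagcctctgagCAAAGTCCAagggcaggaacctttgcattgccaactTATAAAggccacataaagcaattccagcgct
Slc10a1 (chr12:80968706-80968955, minus strand): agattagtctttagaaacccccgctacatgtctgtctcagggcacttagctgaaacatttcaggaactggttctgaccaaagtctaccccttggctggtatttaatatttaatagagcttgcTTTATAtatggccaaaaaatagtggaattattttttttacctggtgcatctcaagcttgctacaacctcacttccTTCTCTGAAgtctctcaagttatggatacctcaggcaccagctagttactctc
Abcb11 (chr2:69342617-69342866, minus strand): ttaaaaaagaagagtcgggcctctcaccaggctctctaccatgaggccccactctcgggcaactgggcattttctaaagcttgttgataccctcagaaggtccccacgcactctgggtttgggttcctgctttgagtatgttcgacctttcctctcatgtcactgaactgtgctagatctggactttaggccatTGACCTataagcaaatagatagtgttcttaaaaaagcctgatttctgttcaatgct
Nr0b2 (chr4:133553126-133553375, plus strand): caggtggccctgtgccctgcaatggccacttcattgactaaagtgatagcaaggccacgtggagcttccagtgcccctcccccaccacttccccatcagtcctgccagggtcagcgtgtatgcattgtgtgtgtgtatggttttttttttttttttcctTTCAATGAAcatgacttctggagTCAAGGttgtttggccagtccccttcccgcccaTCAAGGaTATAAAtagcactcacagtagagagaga

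The upstream window of Cyp8b1 held an HNF4 site, CAAAGTCCA, from 67 to 59 bases before the start, which 0.384% of 32851 such windows hold. It also held a TATA box (TATAAA, in 12.4% of windows) from 31 to 26 bases before the start. The window of Slc10a1 shown above held a STAT-type site (TTCNNNGAA, in 7.02%) from 53 to 45 bases before the start, and a TATA box on the opposite strand. RefSeq gave a second start for Slc10a1, whose window (chr12:80968080-80968329) held the half-site AGGTCA from 87 to 82 bases before it. Abcb11 had the nuclear receptor half-site AGGTCA (in 14% of windows) on the opposite strand, from 56 to 51 bases before the start. Nr0b2 had the half-site TCAAGG of LRH-1 (Nr5a2) at 68 to 63 and at 35 to 30 bases before the start, a motif that 12.5% of windows hold, besides a STAT-type site at 91 to 83 and a TATA box at 28 to 23. The HNF1 half-site GTTAAT (in 6.43%) was found in none of these 4. The window of Slco1b2 held it from 66 to 61 bases before the start, with a STAT-type site at 206 to 198, the half-site AGGTCA on the opposite strand at 81 to 76, and a TATA box at 234 to 229 and at 227 to 222. The inverted repeat to which FXR binds, made of the half-site AGGTCA and its reverse complement with 1 base between them, was in 0.00609% of windows and in none of the windows of these genes. No motif was found in the window of Cyp27a1 (chr1:74713285-74713534), which lies within the span of the gene given above. The bases that follow this window were not found in a GENCODE transcript of the gene. The window of Slco1b2 (chr6:141629268-141629517) ends inside the span of its gene. These matches are letters in a window and were not tested for binding.

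All 10 genes had lower fitted levels in the tumor-bearing groups than in the sham livers, and 5 of them fell in the intra-S livers. A gene was called at an adjusted p under 0.05, by edgeR's quasi-likelihood test with Benjamini-Hochberg adjustment over all genes tested. In intra-S against sham, the bile salt export pump Abcb11 fell by 71.9%, the oxysterol hydroxylase Cyp7b1 fell by 86.3%, and the uptake transporter Slc10a1 fell by 43.1% of the sham mean. Among the conjugation enzymes, Baat fell by 56.7% and Slc27a5 fell by 56.1%. The labels give these livers as biological replicates of day 21 and name no further source, so the p-values measure only the spread between them. None of the 10 was higher. Of all genes tested, 3.95% were called lower and 6.78% higher in this comparison. In intra-C against sham, none of the 10 genes was called, where 2.38% of all genes were called lower and 4.92% higher. At an unadjusted p under 0.05, Cyp7b1, Slc10a1 and Baat were lower in intra-C (11.8% of all genes lower and 15.2% higher), DESeq2 called the same 3 genes, and Baat was closest to the edgeR threshold (adjusted p = 0.0561). In intra-S, 6 of the 10 passed the unadjusted threshold (13% of all genes lower and 17.2% higher).

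The median log2 fold change of the 10 genes was -0.60 in intra-C and -1.004 in intra-S, against 0.01 and 0.04 over all genes. Both comparisons share the sham livers. Without overlap between the groups, 7 genes were lower in both intra-C livers than in both sham livers (34% of all genes, and 34.4% higher), and 9 were lower in both intra-S livers (30% of all genes, and 30.4% higher). In 6 of the 10 genes, namely Cyp27a1, Cyp7b1, Slc10a1, Abcb11, Baat and Slc27a5, all 4 tumor-bearing livers were below both sham livers, as in 21.5% of all genes. Scaling by totals alone moved the split of all called genes from 806 higher and 389 lower to 569 and 801 in intra-C, and from 1110 and 646 to 838 and 1115 in intra-S.

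The calls depended on which livers were in the fit. With either sham liver left out, edgeR called no gene of the whole table in either comparison with sham, and with either intra-C liver left out none of the 10 genes was called in intra-S. The adjusted p of Abcb11 was then 0.127 and 0.145 without sham replicates 1 and 2, and 0.0561 and 0.0568 without intra-C replicates 1 and 2. Without intra-S replicate 1, 7 of the 10 genes were called lower in intra-S, among 1217 genes of the whole table, and without intra-S replicate 2, 6 were, among 2683. In intra-C, 6 of the 10 were called lower without intra-S replicate 1 (2112 genes of the whole table) and 6 without intra-S replicate 2 (2089 genes). Fits over only the 2 groups compared called 6 of the 10 lower in intra-C, among 2223 genes, and 0 in intra-S, among 116. Calls thus rose and fell over the whole table in these fits, and not in the 10 genes alone.

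**Figure D1:**
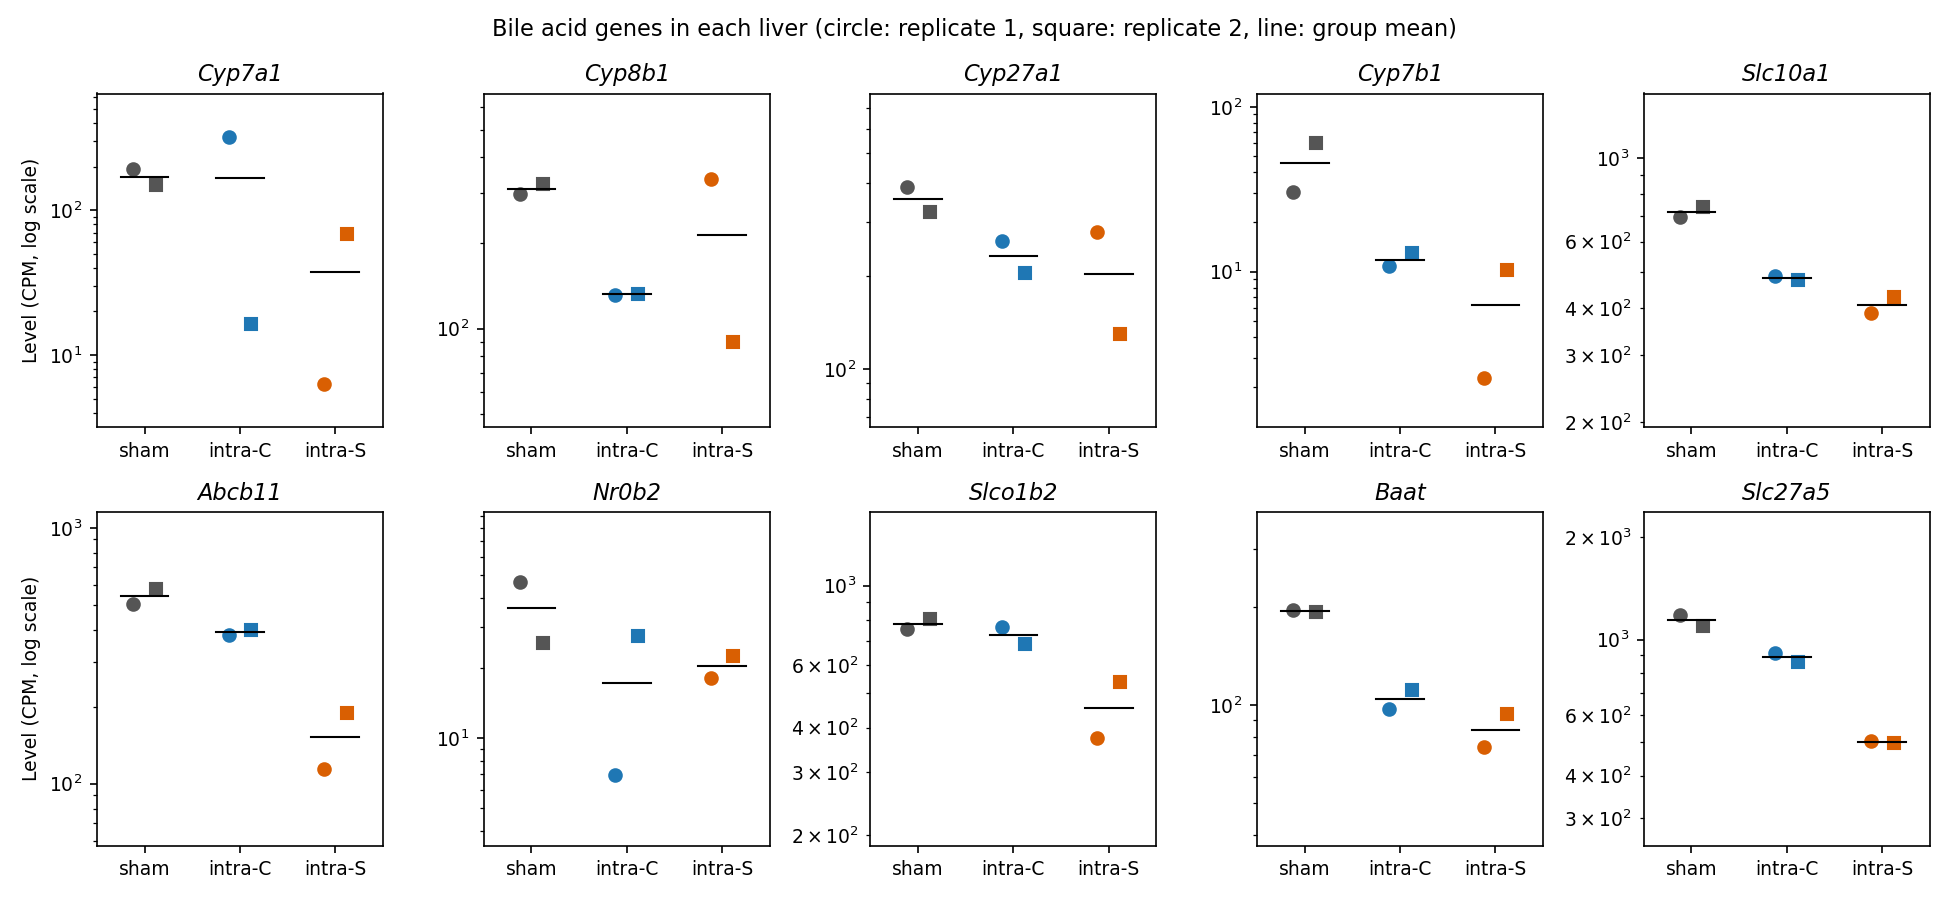
Level of each of the 10 genes in each liver (CPM on a log axis whose range differs between panels), with circles for replicate 1, squares for replicate 2 and a line at the group mean. The 2 intra-C livers and the 2 intra-S livers lie far apart for Cyp7a1, whereas for Baat and Slc27a5 all 4 tumor-bearing livers lie below both sham livers.

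Among the hydroxylases, Cyp7a1, the rate-limiting enzyme of the classic route, was the most uneven gene. It was at 191 and 150.3 CPM in sham, 319 and 16.3 CPM in intra-C, and 6.36 and 68.5 CPM in intra-S. The livers of one group differed 1.27-fold in sham, 19.6-fold in intra-C and 10.8-fold in intra-S, and intra-C replicate 1 was the highest of all 6. The groups overlapped in intra-C, and both intra-S livers were below both sham livers. The log2 fold change was -0.02 in intra-C (SE 1.36, 95% interval -3.29 to 3.25, adjusted p = 0.994) and -2.19 in intra-S (SE 1.42, interval -5.61 to 1.23, adjusted p = 0.349). At this spread neither a rise nor a fall of several fold could be told from no change. In intra-C the estimate ranged from -3.39 without replicate 1 to 0.93 without replicate 2, and in intra-S from -4.74 without intra-S replicate 2 to -1.31 without intra-S replicate 1.

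Cyp8b1, the sterol hydroxylase that directs synthesis toward cholic acid, measured 297 and 322 CPM in sham, 132 and 133 CPM in intra-C, and 335 and 90.0 CPM in intra-S. Both intra-C livers were at less than the level of either sham liver, and one intra-S liver was above and the other below. The log2 fold change was -1.23 in intra-C (SE 0.55, adjusted p = 0.211) and -0.54 in intra-S (SE 0.54, adjusted p = 0.540). Without intra-S replicate 1 it was -1.78 in intra-S (adjusted p = 0.000966), and without intra-S replicate 2 it was 0.12. Without intra-S replicates 1 or 2, Cyp8b1 was called lower in intra-C at the same size of change (adjusted p = 0.000968 and 0.00115).

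Cyp27a1, the mitochondrial enzyme that oxidizes the sterol side chain, measured 390 and 323 CPM in sham, 260.2 and 205 CPM in intra-C, and 278 and 129.9 CPM in intra-S. All 4 tumor-bearing livers were below both sham livers. Its log2 fold changes of -0.62 (SE 0.37, adjusted p = 0.341) and -0.81 (SE 0.38, adjusted p = 0.205) did not pass the test. In intra-S the estimate was -1.45 without intra-S replicate 1, where it was called (adjusted p = 0.00577), and -0.36 without replicate 2 (adjusted p = 0.230). Cyp7b1, the oxysterol hydroxylase of the alternative route, was at 30.5 and 60.2 CPM in sham, at 10.7 and 12.9 CPM in intra-C, and at 2.27 and 10.2 CPM in intra-S. No tumor-bearing liver reached the lower sham liver. The log2 fold change was -1.94 in intra-C (SE 0.67, adjusted p = 0.129) and -2.86 in intra-S (SE 0.69, adjusted p = 0.0494), so that Cyp7b1 had the largest fitted fall of the 10 genes and passed the threshold by little. Its estimate in intra-S was -2.15 without intra-S replicate 1, -4.31 without intra-S replicate 2, -3.26 without sham replicate 1 and -2.29 without sham replicate 2.

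Both conjugation enzymes fell in intra-S and were close together within each group. Slc27a5, the bile acyl-CoA synthetase that activates bile acids for conjugation, was at 1183 and 1098 CPM in sham, 914 and 863 CPM in intra-C, and 504 and 499 CPM in intra-S. The 3 groups did not overlap and lay in this order. Its mean went from 1140.5 ± 59.7 CPM in sham to 501 ± 3.54 CPM in intra-S (SD, n = 2 each), which is -1.19 on the log2 scale (SE 0.20, 95% interval -1.66 to -0.71, adjusted p = 0.0201). The change in intra-C was -0.36 (SE 0.20, adjusted p = 0.291). Baat, which joins the activated bile acid to taurine or glycine, was at 195 and 193 CPM in sham, 97.0 and 111 CPM in intra-C, and 74.1 and 94.1 CPM in intra-S. Its groups did not overlap either, and the sham livers differed 1.01-fold. The log2 fold change was -0.90 in intra-C (SE 0.21, interval -1.41 to -0.39, adjusted p = 0.0561) and -1.21 in intra-S (SE 0.21, interval -1.72 to -0.69, adjusted p = 0.0228). Over the alternatives run, the adjusted p of Baat in intra-C lay between 0.00353 and 0.345.

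The transporters were measured on both faces of the hepatocyte. Slc10a1 (NTCP), the sodium-dependent carrier that takes conjugated bile acids up from blood, was at 696 and 740.1 CPM in sham, 486 and 475 CPM in intra-C, and 388 and 429 CPM in intra-S. The groups were ordered without overlap. Its log2 fold change was -0.58 in intra-C (SE 0.20, adjusted p = 0.124) and -0.81 in intra-S (SE 0.20, 95% interval -1.29 to -0.34, adjusted p = 0.0491). The call in intra-S was lost without a filter on low counts (adjusted p = 0.0533) and with the replicate number as a block (adjusted p = 0.0746). That call was also lost in the fit over only the 2 groups (adjusted p = 0.122), and without either sham or either intra-C liver. Slco1b2 (OATP1B2), a sodium-independent uptake carrier, was at 756 and 805 CPM in sham, 765 and 686 CPM in intra-C, and 373 and 537 CPM in intra-S. Its sham and intra-C livers overlapped, and both intra-S livers were lower. The log2 fold change was -0.11 in intra-C (SE 0.24, interval -0.69 to 0.48) and -0.78 in intra-S (SE 0.25, interval -1.37 to -0.19, adjusted p = 0.0928).

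Abcb11 (BSEP), the pump that exports bile salts into the canaliculus, was at 505 and 576 CPM in sham, 382 and 399 CPM in intra-C, and 115 and 189 CPM in intra-S. All 3 groups were apart. Its mean was 540.4 ± 50.7 CPM in sham, 390.4 ± 11.6 CPM in intra-C and 152 ± 52.9 CPM in intra-S (SD, n = 2 each). The log2 fold change was -0.47 in intra-C (SE 0.28, 95% interval -1.14 to 0.20, adjusted p = 0.333) and -1.83 in intra-S (SE 0.29, interval -2.52 to -1.14, adjusted p = 0.0167), the lowest adjusted p among the 10 genes. The overlap with transcripts of the opposite strand applies to these values.

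Nr0b2 (SHP), the repressor that is induced by FXR, was at 46.7 and 25.5 CPM in sham, 6.93 and 27.6 CPM in intra-C, and 18.2 and 22.6 CPM in intra-S. The sham and intra-C livers overlapped, intra-C replicate 1 was the lowest, and the livers differed 3.98-fold within intra-C. Its log2 fold changes of -1.07 (SE 0.62, adjusted p = 0.320) and -0.82 (SE 0.61, adjusted p = 0.411) did not pass the test. In intra-C the estimate was -0.39 without intra-C replicate 1 and -2.36 without intra-C replicate 2, and neither was called.

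**Figure D2:**
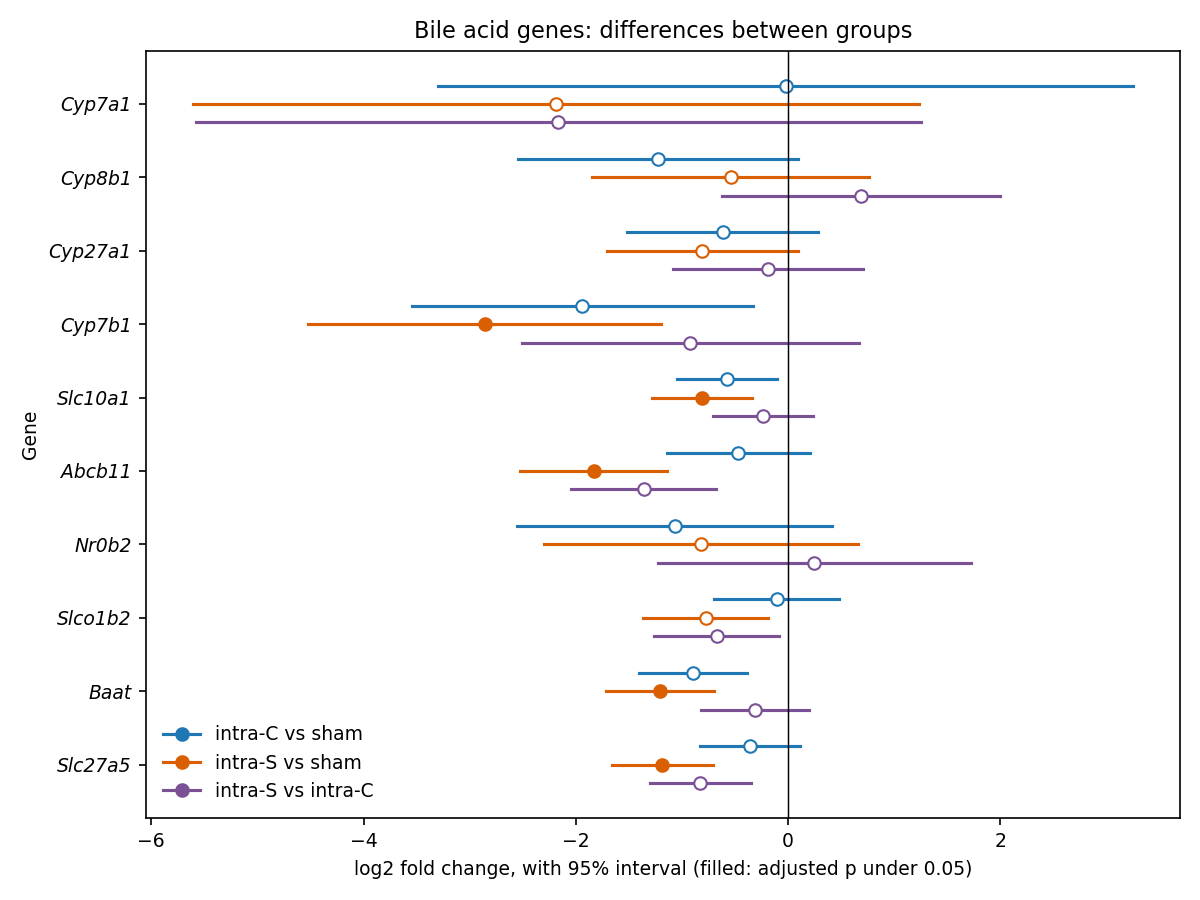
Log2 fold change of each of the 10 genes in each comparison, with its 95% interval from the edgeR fit; filled points had an adjusted p under 0.05. The 5 filled points all belong to intra-S against sham, and the intervals of Cyp7a1 are the widest.

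When the tumor-bearing groups were compared with each other, edgeR called no gene of the whole table (0% higher and 0% lower), whereas DESeq2 called 240 higher and 284 lower, and by edgeR 6.99% were higher and 6.41% lower in intra-S at an unadjusted p under 0.05. The 10 genes had a median log2 difference of -0.49, against 0.03 over all genes. In 6 of them both intra-S livers were below both intra-C livers, as in 21.5% of all genes (21.9% higher). Abcb11 was lower in intra-S by -1.36 (SE 0.28, unadjusted p = 0.00244 from edgeR, adjusted p = 0.285), Slc27a5 by -0.83 (SE 0.20, unadjusted p = 0.00480, adjusted p = 0.285) and Slco1b2 by -0.67 (SE 0.25, unadjusted p = 0.0314, adjusted p = 0.347) on the log2 scale. DESeq2 called the first 2 of these (adjusted p = 0.00350 and 0.00447). For Slc10a1 and Baat the difference was -0.23 (95% interval -0.70 to 0.24) and -0.31 (interval -0.82 to 0.20). A call in intra-S and none in intra-C therefore was not shown to be a difference between these groups by the edgeR test. Without intra-S replicate 2, 4 of the 10 genes (Cyp7b1, Abcb11, Slco1b2 and Slc27a5) were called lower in intra-S than in intra-C and 1, Cyp8b1, higher, among 1572 genes lower and 1312 higher in the whole table.

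Because CPM does not account for transcript length, levels of different genes were compared in the deposited TPM values. In the sham livers the order was Slc27a5 (1100.2 ± 59.6 TPM, SD, n = 2 as for the others), Slc10a1 (734 ± 30.9), Slco1b2 (520.1 ± 21.9), Cyp8b1 (356 ± 19.8), Cyp27a1 (345 ± 46.2), Abcb11 (207 ± 19.1), Baat (132 ± 1.26), Cyp7a1 (91.9 ± 15.7), Nr0b2 (63.3 ± 26.4) and Cyp7b1 (41.8 ± 19.3). The livers of Cyp8b1 and Cyp27a1, of Cyp7a1 and Nr0b2, and of Nr0b2 and Cyp7b1 overlapped, so these neighbors did not differ beyond their spread. The summed level of the 10 genes was 3619 and 3565 TPM in sham, 2294 and 2199 TPM in intra-C, and 1508 and 1458 TPM in intra-S. TPM is not scaled by TMM, so that large changes in other abundant genes move it. With TMM scaling the sum was 4289 and 4294 CPM in sham, 3374 and 2927 CPM in intra-C, and 2093 and 2070 CPM in intra-S.

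**Figure D3:**
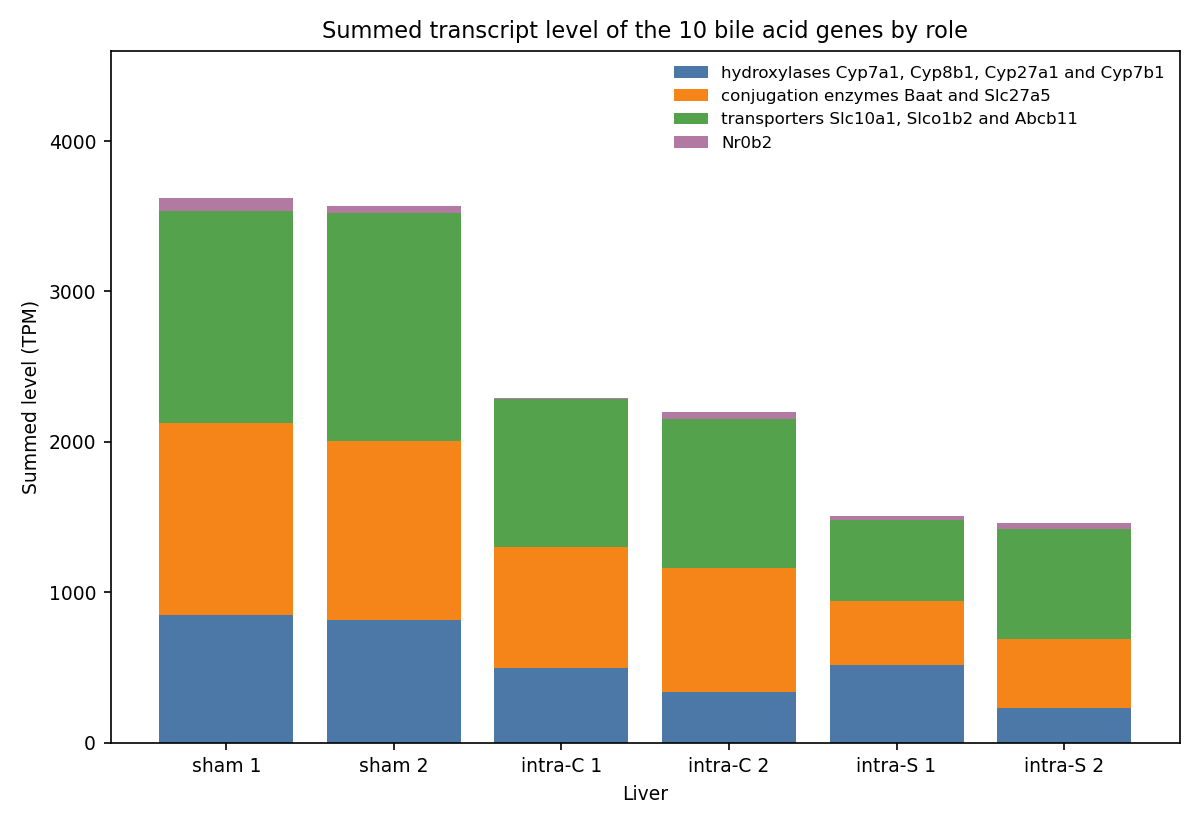
Summed TPM of the 10 genes in each liver, stacked by role from 0. The sum was 3619 and 3565 TPM in the sham livers and between 1458 and 2294 TPM in the tumor-bearing livers.

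The transporters held 40.7 ± 2.43% of that sum in sham, 44.0 ± 1.75% in intra-C and 43.1 ± 10.1% in intra-S (SD, n = 2 each). The conjugation enzymes held 34.3 ± 1.33%, 36.3 ± 1.65% and 29.7 ± 2.50%, and the hydroxylases 23.2 ± 0.387%, 18.5 ± 4.49% and 25.2 ± 13.1%. The hydroxylases of intra-S held 34.4% in replicate 1 and 15.9% in replicate 2. These shares are given as a description, with no test. The ratio of Slc10a1 to Abcb11, uptake to export, was 3.68 and 3.42 in sham, 3.39 and 3.18 in intra-C, and 9.02 and 6.05 in intra-S, without overlap between intra-S and the others. The ratio of Cyp8b1 to Cyp7a1 was 3.33 and 4.58 in sham but 0.882 and 17.4 in intra-C and 113 and 2.81 in intra-S, so that the tumor-bearing livers spanned both sides of the sham range.

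Cyp7a1 is known to follow a daily rhythm in liver, under the control of clock output factors such as Dbp, and the hour of collection was not in the labels. A list of 14 clock genes, chosen after the data were seen, was therefore examined beside it. Of these, 7 had higher and 7 lower fitted levels in intra-C, and 6 higher and 8 lower in intra-S, with median log2 fold changes of -0.09 and -0.19. Values are shown for Dbp and Arntl, which were picked with their levels known. Dbp was at 13.7 and 37.8 CPM in sham, 6.37 and 1.61 CPM in intra-C, and 1.34 and 8.93 CPM in intra-S. Arntl (BMAL1), a clock activator whose level runs opposite to that of Dbp, was at 2.34 and 0.611 CPM in sham, 4.28 and 15.8 CPM in intra-C, and 20.7 and 1.89 CPM in intra-S. The livers with the lowest Cyp7a1, intra-C replicate 2 and intra-S replicate 1, had the highest Arntl and the lowest Dbp of the 6. In intra-C replicate 1, which had the highest Cyp7a1, Dbp was below and Arntl above both sham livers. Of the 14 genes, Hlf was called lower in intra-C, and Hlf and Tef, further factors of the same family as Dbp, in intra-S. The part of collection time in the levels of Cyp7a1 was not tested.

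**Figure D4:**
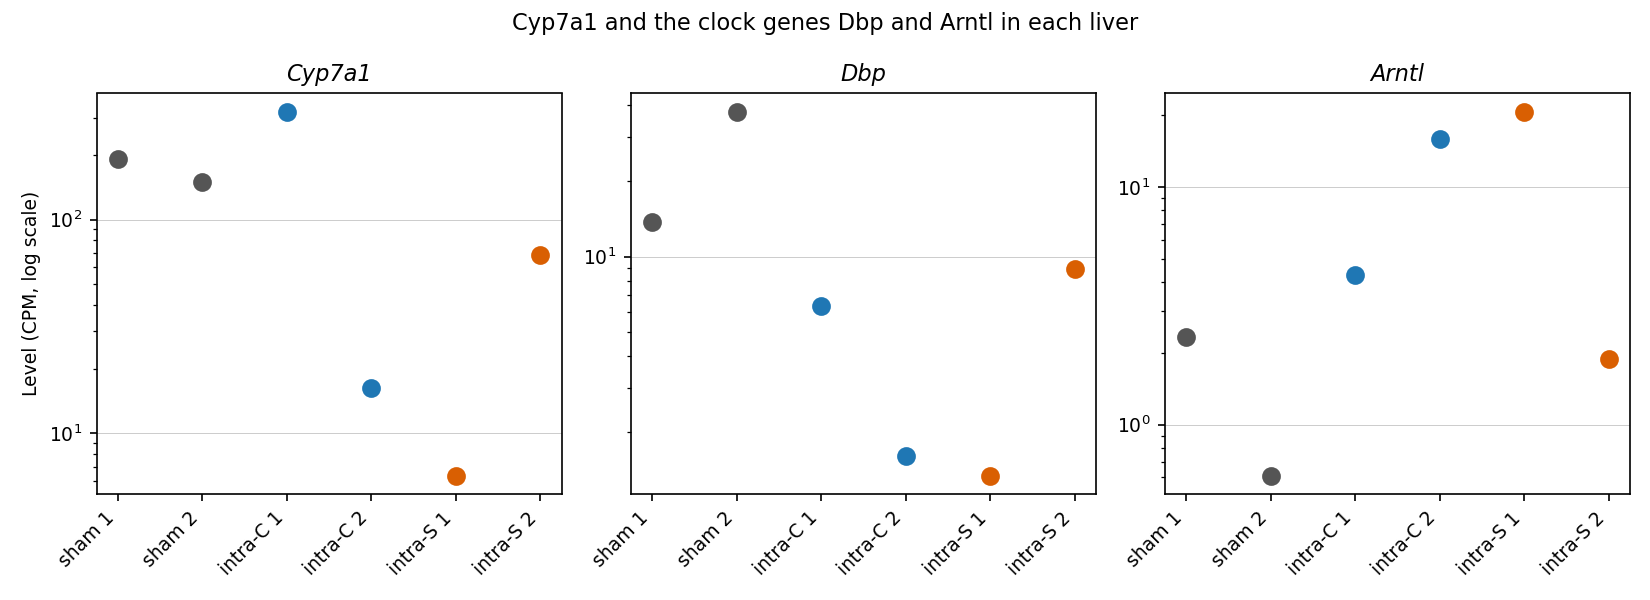
Level of Cyp7a1, Dbp and Arntl in each liver (CPM, log axes). The lowest Cyp7a1 levels (16.3 CPM in intra-C replicate 2 and 6.36 CPM in intra-S replicate 1) fall in the livers with the lowest Dbp and the highest Arntl. The highest Cyp7a1 level, in intra-C replicate 1, falls in a liver with Dbp below and Arntl above both sham livers.

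A list of 48 further genes of bile acid metabolism was examined around these 10. Rows were found for 44, all of which were tested, and Ch25h, Slc51a, Gpbar1 and Fgf15 were not analysed here. In intra-C 1 of the 44 was called higher and 5 lower, and in intra-S 2 higher and 10 lower, with median log2 fold changes of -0.37 and -0.82. Over all genes tested, 4.92% were called higher and 2.38% lower in intra-C, 6.78% and 3.95% in intra-S, and the medians were 0.01 and 0.04. None was called between intra-S and intra-C by edgeR (11 lower and 0 higher at an unadjusted p under 0.05). The calls of this list rested on single livers as well. Without either sham liver, every call of this list against sham was lost. Those in intra-C were also all lost without either intra-C liver. Of the 12 in intra-S, those of Acot8, Slc10a2, Abcg5, Abcb1a, Atp8b1, Abcc3 and Nr1i3 were lost without either intra-C liver (adjusted p from 0.0508 to 0.0870) and in the fit over only the 2 groups (from 0.0575 to 0.0837), where those of Akr1d1, Abcd3, Sult2a8, Sult2a1 and Slco2b1 stayed.

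Of 11 other synthesis enzymes, Akr1d1 and Abcd3 fell in both groups. Akr1d1, the steroid reductase that gives bile acids their bent ring system, was at 368 and 343 CPM in sham, 171 and 182 CPM in intra-C, and 74.1 and 99.5 CPM in intra-S. The groups were apart, with log2 fold changes of -1.01 (SE 0.22, adjusted p = 0.0468, and 0.0666 with the replicate number as a block) and -2.03 (SE 0.23, adjusted p = 0.00782). Abcd3, which carries bile acid intermediates into peroxisomes, went from 489 and 491 CPM to 172 and 247 CPM in intra-C and 132 and 149 CPM in intra-S (log2 fold change -1.23 and -1.80, adjusted p = 0.0370 and 0.0132). In the conjugation and sulfation list of 6 genes, 2 were called lower in intra-C and 3 in intra-S. The sulfotransferase Sult2a8, which acts on bile acids in mouse liver, was at 488 and 519 CPM in sham, 15.4 and 26.6 CPM in intra-C, and 2.57 and 13.6 CPM in intra-S. This was the largest fall among the 44 genes in both groups, with log2 fold changes of -4.59 (SE 0.79, adjusted p = 0.0275) and -5.95 (SE 0.84, adjusted p = 0.0137). Its relative Sult2a1 fell from 808 and 869 CPM to 188 and 216 CPM in intra-C and 100.4 and 181 CPM in intra-S (log2 fold change -2.05 and -2.58, adjusted p = 0.0204 and 0.0102). In intra-S the estimate of Sult2a8 was -5.20 without intra-S replicate 1 and -7.61 without intra-S replicate 2. These genes belong to a family of near-identical copies, so that the split of reads between them is uncertain. Acot8, a peroxisomal thioesterase, was called only in intra-S (11.6 and 9.71 CPM in sham, 2.13 and 4.24 CPM in intra-S, adjusted p = 0.0360), and its difference between intra-S and intra-C was not called (adjusted p = 0.414).

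Of 5 other uptake genes, Slc10a2 (ASBT), the sodium-dependent carrier known from ileum and bile ducts, rose in both groups. It was at 3.38 and 1.38 CPM in sham, 62.3 and 60.5 CPM in intra-C, and 24.5 and 14.5 CPM in intra-S. All 4 tumor-bearing livers were above both sham livers, with log2 fold changes of 4.69 (SE 0.50, adjusted p = 0.00809) and 3.04 (SE 0.47, adjusted p = 0.0156). They were 5.48 and 3.82 without sham replicate 1, and 4.18 and 2.53 without sham replicate 2. Of the 8 bile duct markers examined, 7 were tested and 1, Sox9, was called, higher in intra-S (0.468 and 0.792 CPM in sham, 1.12 and 2.104 CPM in intra-C, 2.57 and 2.94 CPM in intra-S, adjusted p = 0.154 and 0.0491). Spp1, which other cells also make, was above sham in all 4 tumor-bearing livers (13.7 and 16.7 CPM in sham, 63.1 and 96.2 CPM in intra-C, 19.6 and 180.2 CPM in intra-S, adjusted p = 0.153 and 0.106). The keratins Krt19 and Krt7 and the adhesion protein Epcam together made 1.01 and 2.01 CPM in sham, 1.25 and 0.247 CPM in intra-C, and 1.43 and 1.57 CPM in intra-S. The part of bile duct cells in the rise of Slc10a2 was not tested. The uptake carrier Slco2b1 fell in intra-S, from 139 and 146 CPM to 34.8 and 46.6 CPM (log2 fold change -1.81, adjusted p = 0.0115), and its level in intra-C was 70.5 and 88.0 CPM (adjusted p = 0.0785).

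Of 7 other genes of canalicular export, none was called in intra-C. In intra-S the sterol exporter subunit Abcg5 (128 and 135 CPM in sham, 27.7 and 49.8 CPM in intra-S, adjusted p = 0.0336) and the drug exporter Abcb1a (15.8 and 15.2 CPM in sham, 4.08 and 7.04 CPM in intra-S, adjusted p = 0.0491) fell. Atp8b1, the lipid flippase of the canalicular membrane, rose from 19.8 and 16.1 CPM in sham to 105 and 50.2 CPM in intra-S (log2 fold change 2.11, SE 0.37, adjusted p = 0.0225), and was at 44.6 and 53.7 CPM in intra-C (adjusted p = 0.0645). Its estimate in intra-S ranged from 1.49 to 2.54 over the fits without 1 liver. Of 3 genes of export back to blood, Abcc3 fell in intra-S (155 and 137 CPM in sham, 49.6 and 64.6 CPM in intra-S, log2 fold change -1.35, adjusted p = 0.0215) and was at 75.3 and 93.5 CPM in intra-C (adjusted p = 0.0902).

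Of 12 nuclear receptors and signaling genes, the xenobiotic receptor Nr1i3 (CAR) was called lower in both groups, with 203 and 134 CPM in sham, 49.2 and 66.0 CPM in intra-C, and 57.0 and 60.0 CPM in intra-S (log2 fold change -1.55 and -1.53, adjusted p = 0.0291 and 0.0241). The bile acid receptor Nr1h4 (FXR) was at 131 and 129 CPM in sham, 72.0 and 104 CPM in intra-C, and 79.0 and 49.8 CPM in intra-S. All 4 tumor-bearing livers were below sham, but its log2 fold changes of -0.56 (adjusted p = 0.275) and -1.01 (adjusted p = 0.0787) did not pass. In intra-S it was called lower by DESeq2 (adjusted p = 0.0192), by library size without TMM (0.0414), by limma on TPM (0.0394) and without intra-S replicate 1 (0.0106). Nr5a2 (LRH-1), an activator of Cyp7a1 and Cyp8b1, was at 39.6 and 43.1 CPM in sham, 81.3 and 49.0 CPM in intra-C, and 25.7 and 46.9 CPM in intra-S (adjusted p = 0.293 and 0.763). Fgfr4 and its partner Klb, the hepatocyte receptor for Fgf15, showed log2 fold changes between -0.09 and 0.23, and neither was called. Scaling by totals alone turned the sign of Fgfr4 in intra-C and of Klb in intra-S.

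**Figure D5:**
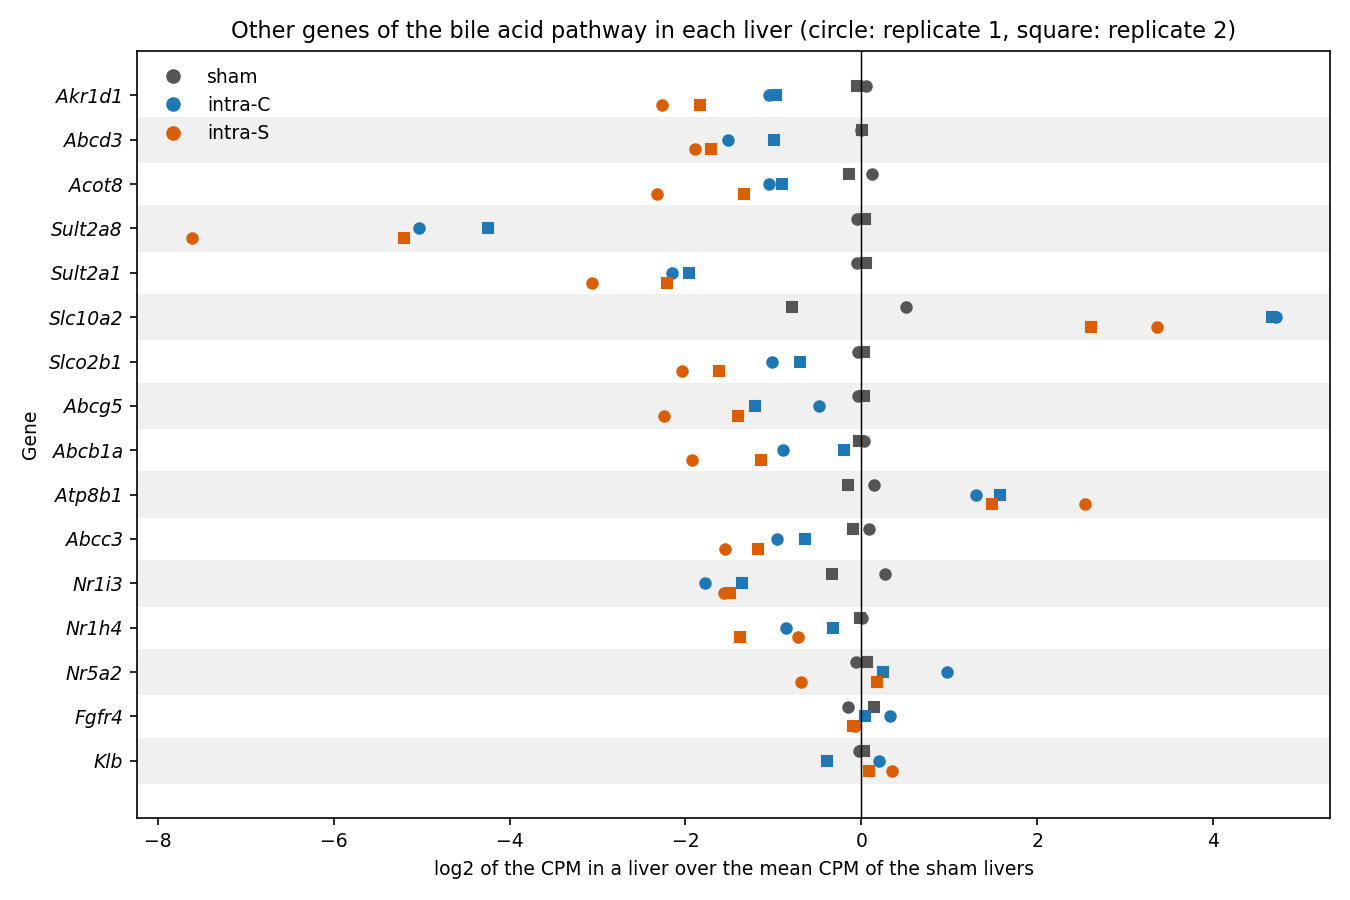
Level of 16 further bile acid genes in each liver, as log2 of its CPM over the mean CPM of the sham livers, with circles for replicate 1 and squares for replicate 2. Sult2a8 lies farthest to the left and Slc10a2 farthest to the right in the tumor-bearing livers.

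Other cell types of the liver moved with the groups. In whole tissue, fewer cells of a type and less RNA per cell cannot be told apart. Of 12 hepatocyte markers none was called lower, with 1 higher in intra-C (Apob) and 1 in intra-S (Trf) and medians of 0.24 and 0.26 on the log2 scale. All 10 neutrophil markers were called higher in both groups, and their summed level was 3.82 and 4.84 CPM in sham, 273 and 582 CPM in intra-C, and 1016 and 403 CPM in intra-S, with Mpo, Elane and Camp at 0 counts in both sham livers. Of 8 macrophage and monocyte markers 6 were called higher in each group, and their summed level was 151 to 152 CPM in sham and 469 to 827 CPM in the tumor-bearing livers. Endothelial markers (4 of 7 called higher in each group) summed to 84.4 and 92.8 CPM in sham and to 207 to 346 CPM in the others.

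Stellate cell and fibroblast markers (0 of 7 called in intra-C and 3 higher in intra-S) summed to 217 to 231 CPM in sham, 258 to 274 CPM in intra-C and 445 to 481 CPM in intra-S. Erythroid markers, of which 0 of 7 were called in intra-C and all 7 were higher in intra-S, summed to 228 to 410.0 CPM in sham, 258 to 409 CPM in intra-C and 1202 to 1726 CPM in intra-S. Of 8 markers of T, NK and B cells none was called in either group. Their sum was 4.16 and 3.92 CPM in sham, 3.92 and 5.17 CPM in intra-C, and 7.26 and 8.19 CPM in intra-S. The 8 markers of bile duct cells summed to 23.7 and 26.6 CPM in sham, 69.9 and 105 CPM in intra-C, and 29.8 and 189 CPM in intra-S, most of it from Spp1. The acute phase genes, which hepatocytes make in inflammation, were all called higher in both groups (13 of 13), with a summed level of 14684 and 15127 CPM in sham and 91789 to 145825 CPM in the tumor-bearing livers. The part of these cell types and of the acute phase response in the lower levels of the bile acid genes was not tested.

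The 10 genes did not share one pattern over the livers. On log2 CPM centered on each gene's mean over the 6 livers, Baat was nearest to the mean pattern of the 10 genes (Euclidean distance 0.436) and Cyp7a1 farthest from it (3.91), with Cyp7b1 (2.21), Nr0b2 (2.04) and Cyp8b1 (1.95) also far. The 5 tested genes outside the set whose pattern came closest to that mean were Wwox (distance 0.124), Ttc23 (0.182), Slc22a18 (0.183), Mthfd1 (0.186) and Mtx3 (0.201). Wwox encodes an oxidoreductase, and its level was 9.04 and 9.80 CPM in sham, 5.83 and 5.04 CPM in intra-C, and 3.03 and 4.12 CPM in intra-S. This ranking is a description over 6 livers of 3 groups.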

How the data were processed

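Gene expression was measured by poly(A) RNA sequencing of 6 mouse livers, 2 in each of the sham, intra-C and intra-S groups, with a library kit that does not mark strand. Alignment by the authors used HISAT2 (2.1.0) and the mm10 assembly, and they deposited raw counts of uniquely mapped exon reads per gene from featureCounts (Subread 2.0.6). They also deposited TPM values, which divide the counts by gene length and scale each library to a fixed total. The annotation and the strand setting of the counting were not given in the sources used here. Because only uniquely mapped reads were counted, genes with near-identical copies are undercounted.

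The 10 genes and all lists were chosen with earlier results of these data known, and the clock list after the levels of Cyp7a1 had been seen. Counts were tested with edgeR (4.0.16, R 4.3.3) by quasi-likelihood in 1 fit of all 6 livers (3 residual degrees of freedom), with TMM scaling and filterByExpr at a minimum count of 10. The SE was derived from the log2 fold change and its F value, and intervals cover 95%. P-values were adjusted by Benjamini-Hochberg over the 16370 genes tested and called at 0.05. A count of 3 reads, the floor of detection, was 0.0679 to 0.0928 CPM per liver. TPM values were described without a test. All 10 genes were named, with the genes of the wider list that were called against sham, the receptors Nr1h4, Nr5a2, Fgfr4 and Klb, and the 5 genes of the most similar pattern. Alternatives were DESeq2 (1.42.0), limma (3.58.1) on log2(TPM + 1), other scalings and filters, the replicate number as a block, fits over only the 2 groups compared, and fits without each liver.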

Additional observations from a re-analysis of the deposited data

How the results depend on the processing

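Leaving out single livers turned the sign of Cyp7a1 and Cyp8b1 against sham. In intra-C against sham, where edgeR called 806 genes higher and 389 lower and 0 of the 10, DESeq2 called 1709 and 1110 with 3 of the 10 lower, library size without TMM 569 and 801 with 1 of the 10 (Baat, adjusted p = 0.0441), limma on TPM 497 and 896 with 1 of the 10 (Baat, adjusted p = 0.0404), and the fit over only the 2 groups 2548 and 2223 with 6 of the 10. In intra-S against sham, where edgeR called 1110 higher, 646 lower and 5 of the 10, DESeq2 called 2065 and 1465 with 6, library size without TMM 838 and 1115 with 5, limma on TPM 685 and 1553 with 6, and the fit over only the 2 groups 276 and 116 with 0 of the 10. Between intra-S and intra-C, where edgeR called 0 genes, DESeq2 called 240 higher and 284 lower, 2 of them among the 10. Library size without TMM shifted the median of all genes by -0.26 in intra-C and -0.27 in intra-S, and limma on TPM by -0.18 and -0.30. The causes of these differences were not tested.

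Fits without 1 liver in turn gave 0 to 2546 genes higher and 0 to 2112 lower in intra-C, with 0 to 6 of the 10 lower. In intra-S they gave 0 to 3010 higher and 0 to 2683 lower, with 0 to 7 of the 10 lower. Between intra-S and intra-C they gave 0 to 1312 higher and 0 to 1572 lower, with 0 to 4 of the 10 lower and 0 to 1 higher. In these fits the lone liver of a group is assumed to vary like the other groups. Ranges of log2 fold change that crossed 0 were -3.39 to 0.93 for Cyp7a1 and -0.39 to 0.22 for Klb in intra-C, and -1.78 to 0.12 for Cyp8b1, -0.68 to 0.19 for Nr5a2 and -0.22 to 0.0683 for Fgfr4 in intra-S. Between intra-S and intra-C they were -4.73 to 1.20 for Cyp7a1, -0.43 to 1.55 for Nr0b2, -0.55 to 1.34 for Cyp8b1, -0.84 to 0.25 for Cyp27a1 and -0.17 to 0.24 for Nr1i3. Other turns of sign were Fgfr4 in intra-C (-0.0772 by library size), Klb in intra-S (-0.0533 by library size and -0.0680 by limma) and Nr1i3 between the tumor groups (-0.0704 by limma).

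Replicate numbers did not pair the livers (correlations of their deviations were -0.03, 0.08 and 0.04). With the replicate block, 673 genes were higher and 259 lower in intra-C with 0 of the 10, and 954 and 553 in intra-S with 4 of the 10. Among the 10 genes and the 16 further bile acid genes named, Slc10a1 in intra-S (adjusted p = 0.0746) and Akr1d1 in intra-C (adjusted p = 0.0666) lost their call.

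The adjusted p of the 5 genes called in intra-S ranged over all alternatives from 4.63e-07 to 0.145 for Abcb11, 1.01e-07 to 0.191 for Slc27a5, 2.37e-05 to 0.183 for Baat, 0.000196 to 0.246 for Cyp7b1 and 0.000829 to 0.331 for Slc10a1. Over the 10 genes and the 16 further bile acid genes named, in 3 comparisons, 987 alternative values kept direction and call, 70 gained a call, 97 lost one and 16 turned. With 2 livers a group, the spread between livers rests on 3 residual degrees of freedom, and the part of depth was not tested.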
